A study of Mus musculus with 10 samples.

Results

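The 9 genes described here encode transcription factors that mark or set epithelial and mesenchymal lineages: Trp63 of the p53 family, Gata2, Gata3 and Gata6, the T-box genes Tbx2 and Tbx3, Runx1 and Runx2, and Klf4. They were taken by name, out of 47069 gene IDs in the count files, and all 9 were found in every one of the 10 tumours and passed the filter on low counts. The tumours were prostate orthografts, grown from mouse prostate cancer cells injected into an anterior prostate lobe of male CD-1 Nude mice, a strain without a functional thymus. P1 (3 tumours) was derived from a prostate tumour of a 14-month-old donor. CP1 (3 tumours) and CP2 (4 tumours) were derived from prostate tumours of donors of 6 and 8 months that carried a deletion of exon 3 of Ctnnb1 on 1 allele (Ctnnb1pc(ex3)Δ/+), which stabilises beta-catenin. The labels do not name the promoter behind the suffix pc. P1 differs from CP1 and CP2 by further alleles besides this one, and each group is a single cell line, so line, genotype and donor age cannot be told apart. Host age and any sharing of animals between libraries are not given, so p-values describe only how far these libraries spread, which can include technical variation.

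p63 is the factor that defines basal cells of stratified and glandular epithelia, and in the prostate and bladder it is found in basal and not in fully differentiated luminal or umbrella cells. GATA factors bind GATA motifs and act in luminal, urothelial, endodermal and blood lineages. TBX2 and TBX3 are mainly repressors with roles in organ patterning, and Tbx3 is a known target of Wnt and beta-catenin signalling in several tissues. RUNX factors bind DNA together with the partner CBFB, RUNX1 in blood and several epithelia and RUNX2 as the main factor of bone formation. KLF4 acts in the late differentiation of surface epithelia.

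Libraries held 28050484 to 37180721 counts in P1, 25081535 to 30546426 in CP1 and 18800912 to 20638085 in CP2. The title of CP2 replicate 1 names CP1, while its other labels name CP2. It stayed in CP2, and its log2 CPM (counts scaled to library size) correlated over genes at 0.984 on average with its CP2 fellows, against 0.912 for CP1 and 0.842 for P1. Transcripts typical of neighbouring tissues differed between tumours of 1 line. Whether host tissue or the grafted cells made them was not tested. The 8 seminal vesicle markers summed to 169900, 69690 and 18290 CPM in P1 replicates 1, 2 and 3, and to between 3.28 and 1593 CPM in the CP tumours. The 8 urothelium markers summed to 63.2, 1396 and 580 CPM in CP1 replicates 1, 2 and 3, to 182 to 388 CPM in P1 and to 14 to 25.4 CPM in CP2. The P1 sum was mostly Krt20 (245 CPM on average, against 11.8 CPM in CP1). Upk1a, Upk3a, Snx31 and Grhl3 were higher in every CP1 tumour, replicate 1 included, than in any P1 tumour. Upk1b, Upk2 and Upk3b were not. Their lowest CP1 values (17.2, 4.94 and 3.21 CPM) lay below their highest P1 values (28.8, 15.05 and 6.48 CPM). The 6 smooth muscle markers summed to 518, 2518 and 3891 CPM in the same CP1 tumours, to 645 to 2097 CPM in P1 and to 223 to 427 CPM in CP2. Markers of prostate luminal epithelium summed to 12240 to 22980 CPM in P1, 1597 to 2026 CPM in CP1 and 825 to 1385 CPM in CP2. In such bulk samples fewer cells of a type and less RNA per cell cannot be told apart.

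Tbx3 and Runx2 were higher in both CP lines than in P1. Trp63 and Klf4 were higher in CP1 than in the other lines on average, and Tbx2 was lowest in CP2. Gata3 stood at nearly the same level in all 3 lines. Calls were made at a Benjamini-Hochberg adjusted p under 0.05 across the 17644 genes tested with edgeR. Between CP1 and P1, 4 of the 9 were called higher and 0 lower, beside 22.4% of all genes called higher and 22.4% called lower. Between CP2 and P1, 2 were higher and 1 lower, beside 28.3% and 28.4% of all genes. Between CP2 and CP1, 1 was higher and 3 lower, beside 21.3% and 21.9%. The median log2 fold change of the 9 was 0.47, 0.00 and -0.07 in these comparisons, against -0.01, 0.00 and -0.01 over all genes. The 3 comparisons share tumours, so their values are given side by side and are not independent of each other.

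**Figure D1:**
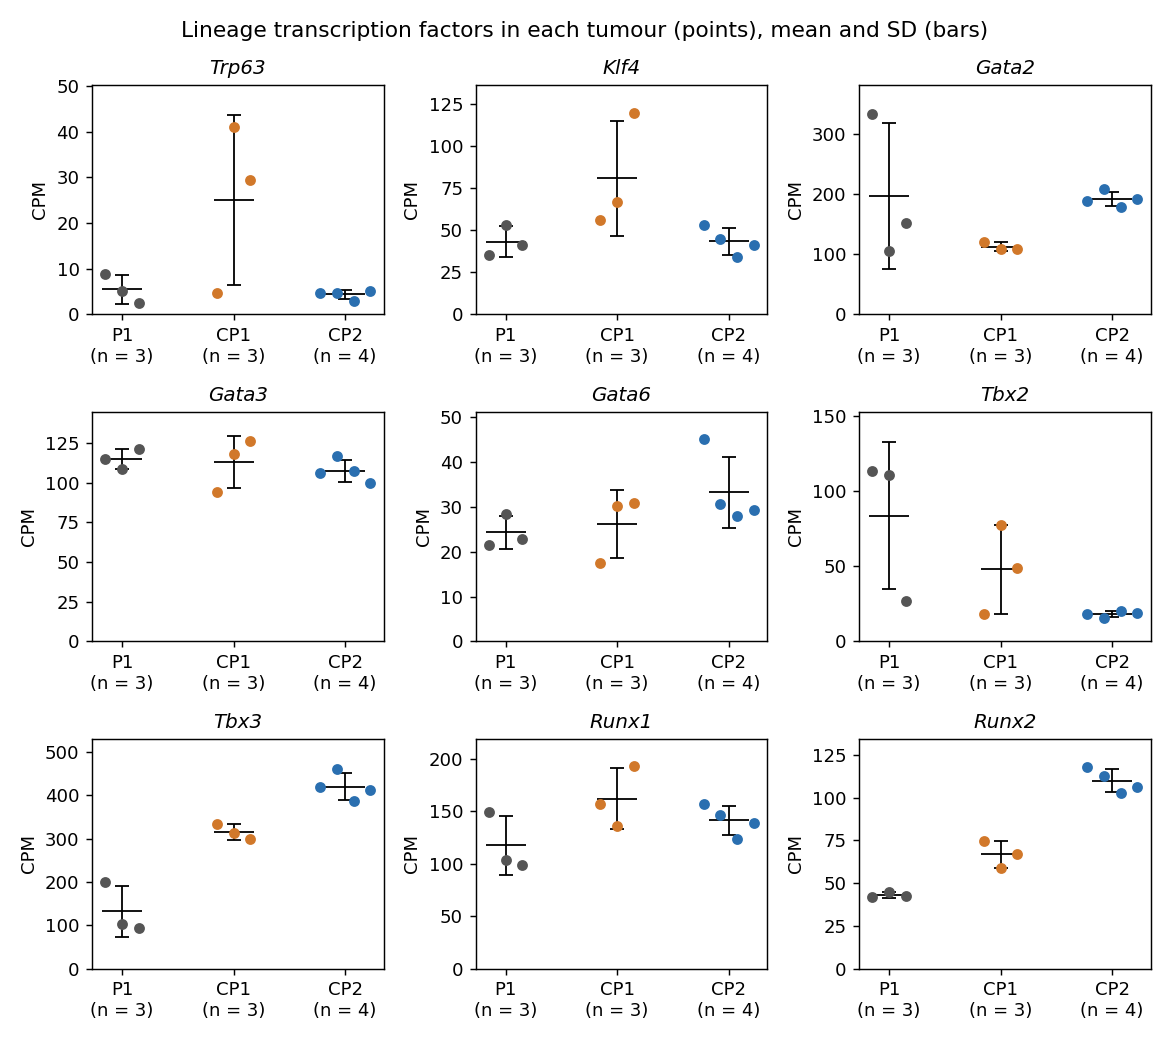
CPM of each of the 9 genes (vertical axes, each from 0) in P1, CP1 and CP2 tumours (points), with the mean (wide bar) and SD (capped line). Runx2 values of the 3 lines do not overlap, Trp63 is high in 2 of 3 CP1 tumours, and Gata3 lies between 94.4 and 126 CPM in all 10.

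Among the T-box genes, Tbx3 rose in both CP lines. It stood at 200, 103 and 93.7 CPM in P1 replicates 1, 2 and 3, whereas the CP1 tumours had 334, 313 and 298 CPM and the CP2 tumours 419, 462, 386 and 413 CPM. Every CP tumour lay above every P1 tumour, and P1 replicate 1, with the most seminal vesicle transcripts, was the highest of P1. Tbx3 (chromosome 5: 119670669 to 119684724, plus strand, GRCm38) rose by log2 1.25 ± 0.25 (SE) in CP1 (adjusted p = 0.00227), and the rise in CP2 was 1.67 ± 0.24 (adjusted p = 2.39e-04). It was called in all 13 alternative analyses of each of these comparisons. CP2 also lay above CP1 with no overlap, yet the difference of 0.41 (95% interval -0.10 to 0.93) did not pass (adjusted p = 0.172). With only the CP1 and CP2 tumours in the fit it did (0.40, adjusted p = 0.00425). The antisense transcript Tbx3os1, whose exons overlap those of Tbx3, averaged 3.57 ± 1.57 CPM in P1 (SD, n = 3), 7.68 ± 1.03 CPM in CP1 (n = 3) and 36.3 ± 11.6 CPM in CP2 (n = 4). Strand use in counting is unknown here, so reads of Tbx3 and Tbx3os1 cannot be told apart with certainty.

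Tbx2, its close relative, did not follow Tbx3. It stood at 114, 111 and 27.2 CPM in P1, while CP1 had 18.2, 77.4 and 49.1 CPM and CP2 18.1, 15.4, 20.2 and 18.8 CPM. The 4 CP2 tumours were uniformly low, whereas P1 and CP1 each spread over about a 4-fold range (4.19-fold and 4.27-fold between highest and lowest tumour). Tbx2 (chromosome 11: 85832551 to 85841948, plus strand) was lower in CP2 than in P1, with a log2 fold change of -2.21 ± 0.52 (adjusted p = 0.0047). Without P1 replicates 1 and 2 the difference was -0.61 and no longer called (adjusted p = 0.412). The high P1 values stood in the tumours with the most seminal vesicle transcripts. Pearson's r of log2 Tbx2 with log2 marker sums was also taken after subtracting each line's mean. It was 0.148 for seminal vesicle, 0.754 for smooth muscle and 0.483 for urothelium. Any part of these tissues in the result was not tested. The smaller difference between CP2 and CP1, -1.41 ± 0.52, was called at adjusted p = 0.0487. That call ended when CP1 replicate 2 was left out (-0.89, adjusted p = 0.219), CP1 replicate 3 (-1.40, 0.0973), or any of CP2 replicates 1 to 4 (-1.34 to -1.47, adjusted p = 0.0832 to 0.107). Without both CP1 replicates 2 and 3, CP2 and CP1 differed by -0.00 (adjusted p = 0.999). Tbx2 did not pass between CP1 and P1 (-0.80, 95% interval -2.02 to 0.42, adjusted p = 0.267), and turned to 0.80 (adjusted p = 0.361) without P1 replicates 1 and 2.

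Of the 17 T-box genes listed, 11 were tested, among them Tbx2 and Tbx3. In CP1 against P1, 3 were higher and 3 lower. In CP2 against P1, 5 were higher and 4 lower, and in CP2 against CP1, 4 were higher and 4 lower. Counts for this list and the lists below stand beside the shares of all genes called given above. Those shares were 21.3% to 28.4% in each direction. Eomes, which acts in cytotoxic lymphocytes and early embryos, averaged 1.20 CPM in P1, 0.539 CPM in CP1 and 6.61 CPM in CP2. It rose in CP2 against P1 by 2.46 ± 0.27 (adjusted p = 4.3e-05). The 11 markers of T and NK cells summed to 24.1 to 34.2 CPM in P1, 5.02 to 6.00 CPM in CP1 and 173 to 240 CPM in CP2. Most of the CP2 sum was Prf1, the perforin of cytotoxic cells, at 9.60 CPM on average in P1, 1.16 CPM in CP1 and 176 CPM in CP2. Of the 10 of these markers tested, 2 were higher and 2 lower in CP2 than in P1, 8 were lower in CP1 than in P1, and 7 were higher in CP2 than in CP1. Their part in the Eomes result was not tested. Tbx4, a limb and lung mesenchyme gene, rose from 0.165 CPM in P1 to 5.34 CPM in CP2 (4.99 ± 0.91, adjusted p = 0.00105). In CP1 it was 0.212 CPM in replicate 1 and 3.12 and 3.93 CPM in replicates 2 and 3, and its rise there (3.84, adjusted p = 0.00639) was 0.36 and not called without the last 2 (adjusted p = 0.768). It was 3.41 and not called without P1 replicates 1 and 2 (adjusted p = 0.0999).

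Runx2 separated the 3 lines completely. P1 tumours had 41.7, 45.1 and 42.7 CPM, CP1 tumours 74.7, 58.6 and 67.2 CPM, and CP2 tumours 118, 113, 103 and 106 CPM. The lines did not overlap, and the spread within a line was at most 1.28-fold. Runx2 (chromosome 17: 44495987 to 44814797, minus strand) rose by 0.63 ± 0.10 in CP1 (adjusted p = 6.35e-04). The rise in CP2 was 1.35 ± 0.10 (adjusted p = 3.27e-06), and Runx2 was 0.72 ± 0.10 higher in CP2 than in CP1 (adjusted p = 2.96e-04). All of these calls held in each of the 13 alternatives run. The antisense transcript Runx2os1, which shares exonic sequence with it, stayed at 0.618 to 1.06 CPM on average per line.

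Runx1 stood at 150, 104 and 98.8 CPM in P1, while CP1 gave 157, 136 and 194 CPM and CP2 157, 146, 124 and 139 CPM, with overlap between all lines. Runx1 (chromosome 16: 92601466 to 92826149, minus strand) did not pass in CP1 (0.47, 95% interval 0.06 to 0.87, adjusted p = 0.0587) or in CP2 (0.27, -0.11 to 0.64, adjusted p = 0.199). Without P1 replicate 1, both differences were called (0.66, adjusted p = 0.0087, and 0.46, adjusted p = 0.0277). The CP1 difference was also called without CP1 replicate 2 (0.58, adjusted p = 0.0354) and without P1 replicates 1 and 2 (0.69, adjusted p = 0.0351).

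The RUNX binding partner Cbfb moved in the same order as Runx2. It averaged 99.4 CPM in P1, 140 CPM in CP1 and 219 CPM in CP2, and rose by 0.49 ± 0.10 in CP1 (adjusted p = 0.00232) and 1.14 ± 0.09 in CP2 (adjusted p = 7e-06). Runx3, the third RUNX gene, fell in CP1 (8.51 to 4.31 CPM, -0.98 ± 0.24, adjusted p = 0.00748) and rose in CP2 (to 14.8 CPM, 0.79 ± 0.22, adjusted p = 0.0119). Its fall in CP1 was not called without P1 replicates 1 and 2 (-0.67, adjusted p = 0.0841) or without CP1 replicates 2 and 3 (-0.68, adjusted p = 0.136). RUNX3 is also a lymphocyte factor, and the part of the T and NK cell markers given above in its result was not tested. Of the 7 genes in the RUNX list, Runx1 and Runx2 included, 2 were higher and 2 lower in CP1 against P1, 4 higher and 1 lower in CP2 against P1, and 4 higher and 1 lower in CP2 against CP1.

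The start regions of the RUNX genes are shown because Runx2 differed between all lines while Runx1 did not pass. RefSeq (GRCm38.p6) windows, 250 bases before to 50 after an annotated start, were at hand for 5 of the 9 genes, namely Gata2, Gata3, Klf4, Runx1 and Runx2. The motifs were chosen after the counts were seen, and both strands were searched. The letters CTTTGA, bound by TCF/LEF factors as the DNA partners of beta-catenin, occurred in 16% of 32851 mouse windows. The RUNX motif, with the letters TGTGGT, occurred in 16.8% of them. A motif for GATA factors, spelled with the letters AGATAA, occurred in 11.2%, and one for KLF factors, spelled CACACCC, in 7.95%. The Runx2 window (chr17:44814578-44814877, minus strand) held 1 TCF/LEF and 3 RUNX matches, and the upstream Runx1 window (chr16:92826025-92826324, minus strand) held 2 RUNX matches. Windows of the other Runx1 start and of Gata2, Gata3 and Klf4 held none of these motifs. Runx3 (chr4:135120395-135120694, plus strand) was added once the first 2 had been read. It was taken from the windows found to hold a pair of RUNX matches seen in Runx2. Capitals mark RUNX matches (ACCACA on the strand shown) and the TCF/LEF match (CTTTGA).
Runx2: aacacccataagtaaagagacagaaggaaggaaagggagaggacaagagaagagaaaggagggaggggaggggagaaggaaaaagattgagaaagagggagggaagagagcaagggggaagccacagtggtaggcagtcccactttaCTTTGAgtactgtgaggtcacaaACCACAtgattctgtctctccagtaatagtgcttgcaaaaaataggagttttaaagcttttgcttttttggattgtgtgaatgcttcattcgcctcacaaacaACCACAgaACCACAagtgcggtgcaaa
Runx1: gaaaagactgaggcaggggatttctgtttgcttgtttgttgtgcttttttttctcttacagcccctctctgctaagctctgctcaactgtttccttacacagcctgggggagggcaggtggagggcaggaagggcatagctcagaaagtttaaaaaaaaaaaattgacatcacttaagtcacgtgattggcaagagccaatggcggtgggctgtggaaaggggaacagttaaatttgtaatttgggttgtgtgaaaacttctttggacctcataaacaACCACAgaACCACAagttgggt
Runx3: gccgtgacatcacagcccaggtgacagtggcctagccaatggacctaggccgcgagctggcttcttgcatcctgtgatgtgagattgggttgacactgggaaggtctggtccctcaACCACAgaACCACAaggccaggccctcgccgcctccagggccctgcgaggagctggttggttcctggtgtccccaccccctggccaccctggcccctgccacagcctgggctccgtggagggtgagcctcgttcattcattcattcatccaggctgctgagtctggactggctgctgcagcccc
All 3 windows carried a pair of RUNX matches with 2 bases between them, the Runx3 window by the way it was chosen. With the annotated start counted as base 1, the first base of the pair was base 24 in Runx2 and base 29 in Runx1. In Runx3 the pair lay upstream of the start. Runx1 and Runx2 shared a run of 22 letters around the pair. The pair, ACCACAGAACCACA, occurred in 4 of 32851 windows (0.0122%), which were those of Runx1, Runx2, Runx3 and Gm16225, whose window overlaps that of Runx3 on the opposite strand. Such matches are letters in a window, and binding was not measured.

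The list of bone matrix genes that RUNX2 is known to act on held 10 genes, 8 of them tested. In CP1 against P1, 5 rose and 2 fell, in CP2 against P1, 4 rose and 3 fell, and in CP2 against CP1, 3 were higher and 2 lower. Ibsp, which encodes bone sialoprotein, had 0.185, 0.0312 and 0.182 CPM in P1, 39.7, 4.28 and 9.27 CPM in CP1 and 21.7 to 48.4 CPM in CP2. It rose by 7.03 ± 1.03 in CP1 (adjusted p = 3.79e-04), with a similar rise of 7.72 ± 1.03 in CP2 (adjusted p = 1.48e-04). Sp7, the osteoblast factor downstream of RUNX2, was at most 0.109 CPM in P1, 0.243 to 1.26 CPM in CP1 and 7.02 to 9.57 CPM in CP2. Its rise in CP2 was 6.42 ± 0.58 against P1 (adjusted p = 1.21e-05) and 3.53 ± 0.46 against CP1 (adjusted p = 2.6e-04). Alpl, the tissue alkaline phosphatase, averaged 7.65, 35.8 and 105 CPM in P1, CP1 and CP2. Its rise in CP1 (2.22, adjusted p = 0.0111) was 0.46 and not called without CP1 replicates 2 and 3 (adjusted p = 0.572), and 2.43 and not called without P1 replicates 1 and 2 (adjusted p = 0.0672).

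Other genes of the list did not follow 1 direction. Spp1, which encodes osteopontin, fell from 4765 CPM in P1 to 600.3 CPM in CP1 (-2.99 ± 0.34, adjusted p = 7.74e-05) and 378 CPM in CP2 (-3.66 ± 0.31, adjusted p = 8.95e-06). Col1a1, a collagen made by fibroblasts and bone cells alike, averaged 2509 CPM in P1, 5292 CPM in CP1 and 1412 CPM in CP2. It was higher in CP1 than in P1 (1.08 ± 0.31, adjusted p = 0.0164), lower in CP2 than in P1 (-0.83 ± 0.28, adjusted p = 0.0290) and lower in CP2 than in CP1 (-1.91 ± 0.29, adjusted p = 5.8e-04). The first call ended without P1 replicate 2, P1 replicate 3 or CP1 replicate 1 (0.85 to 0.98, adjusted p = 0.0572 to 0.0611). The second ended without P1 replicate 1 (-0.56, adjusted p = 0.116), without P1 replicates 1 and 2 (-0.43, adjusted p = 0.352) and without CP2 replicate 1, 2 or 3 (adjusted p = 0.0574 to 0.0693). The defining osteoblast marker Bglap, which encodes osteocalcin, was at 0 in all 3 P1 tumours and averaged 0.0108 CPM in CP1 and 0.0932 CPM in CP2, too low to be tested. The 6 osteoblast markers, all of them also in the bone matrix list, summed to 4.71 to 13.1 CPM in P1, 47.6 to 67.6 CPM in CP1 and 114 to 196 CPM in CP2. On average Alpl made up most of these sums (7.65, 35.8 and 105 CPM in P1, CP1 and CP2). Of the 4 markers tested, all were higher in CP1 than in P1. In CP2 against P1, 3 were higher and 1, Dmp1, was lower. Dmp1 averaged 0.342, 2.25 and 0.0607 CPM in P1, CP1 and CP2.

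**Figure D2:**
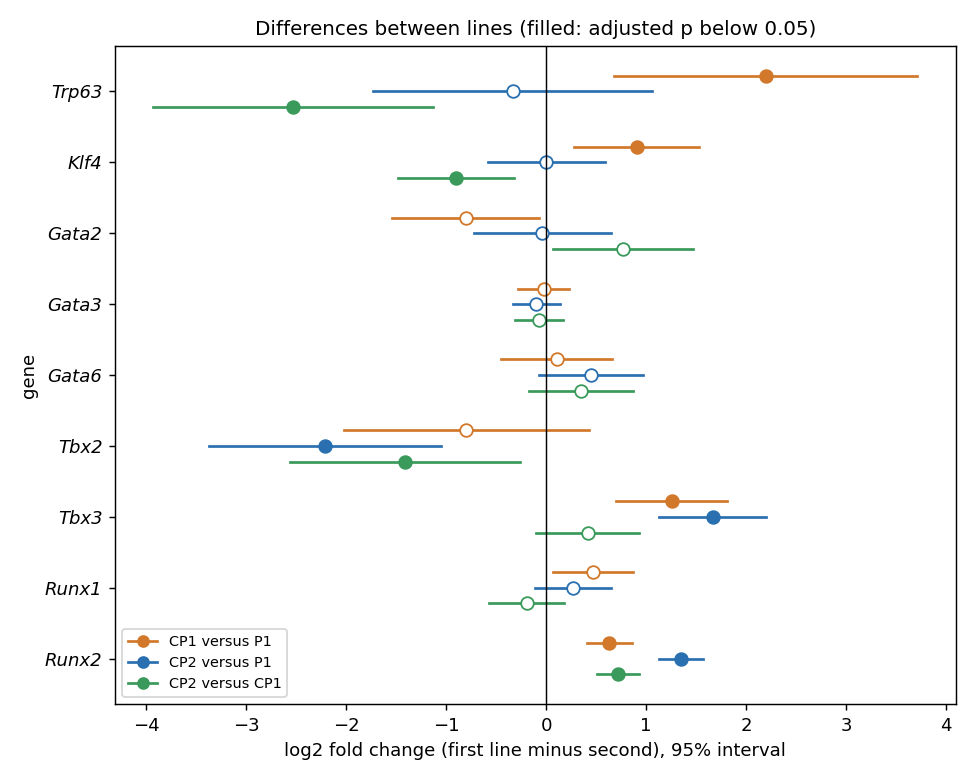
Log2 fold change (horizontal axis) of each gene in CP1 versus P1, CP2 versus P1 and CP2 versus CP1, with 95% intervals (lines), where filled points were called. Runx2 has the shortest intervals, all clear of 0, and the Trp63 interval for CP1 versus P1 runs from 0.68 to 3.71.

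Trp63 was high in only part of CP1. It stood at 8.74, 5.20 and 2.41 CPM in P1, while CP1 replicates 1, 2 and 3 had 4.66, 41.0 and 29.4 CPM and CP2 tumours 4.67, 4.61, 2.96 and 5.07 CPM. CP1 replicate 1 lay among the P1 and CP2 tumours, whereas replicates 2 and 3 lay above all others. Counts behind these values ran from 65 to 1264 reads. Trp63 (chromosome 16: 25683763 to 25892102, plus strand) was higher in CP1 than in P1 by 2.19 ± 0.68 (adjusted p = 0.024) and lower in CP2 than in CP1, by -2.53 ± 0.63 (adjusted p = 0.00924). CP2 and P1 did not differ past the threshold (-0.34, 95% interval -1.74 to 1.06, adjusted p = 0.669). Gene counts do not separate the full-length from the N-terminally shortened isoforms.

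The CP1 result rested on 2 tumours. Without CP1 replicates 2 and 3, Trp63 was -0.22 in CP1 against P1 (adjusted p = 0.818) and -0.11 in CP2 against CP1 (adjusted p = 0.917). The call against P1 also ended when P1 replicate 2 (2.14, adjusted p = 0.0707), P1 replicate 3 (1.83, 0.0749), CP1 replicate 2 (1.64, 0.0885) or CP1 replicate 3 (2.07, 0.0594) was left out, and with only the CP1 and P1 tumours in the fit (2.18, 0.0725). Those 2 tumours also had the most urothelium and smooth muscle transcripts, as given above. The 10 basal epithelium markers summed to 104, 1055 and 723 CPM in CP1 replicates 1, 2 and 3. Their sum was 722 to 1018 CPM in P1 and 237 to 292 CPM in CP2. Of the urothelium markers 7 of 8 were called higher in CP1 than in P1 and 1, Krt20, lower. Upk3a, a uroplakin of the bladder lining, ranged from 8.16 to 249 CPM in CP1 and was at most 0.255 CPM in P1. Any part of urothelium, muscle or basal cells in the Trp63 result was not tested.

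**Figure D3:**
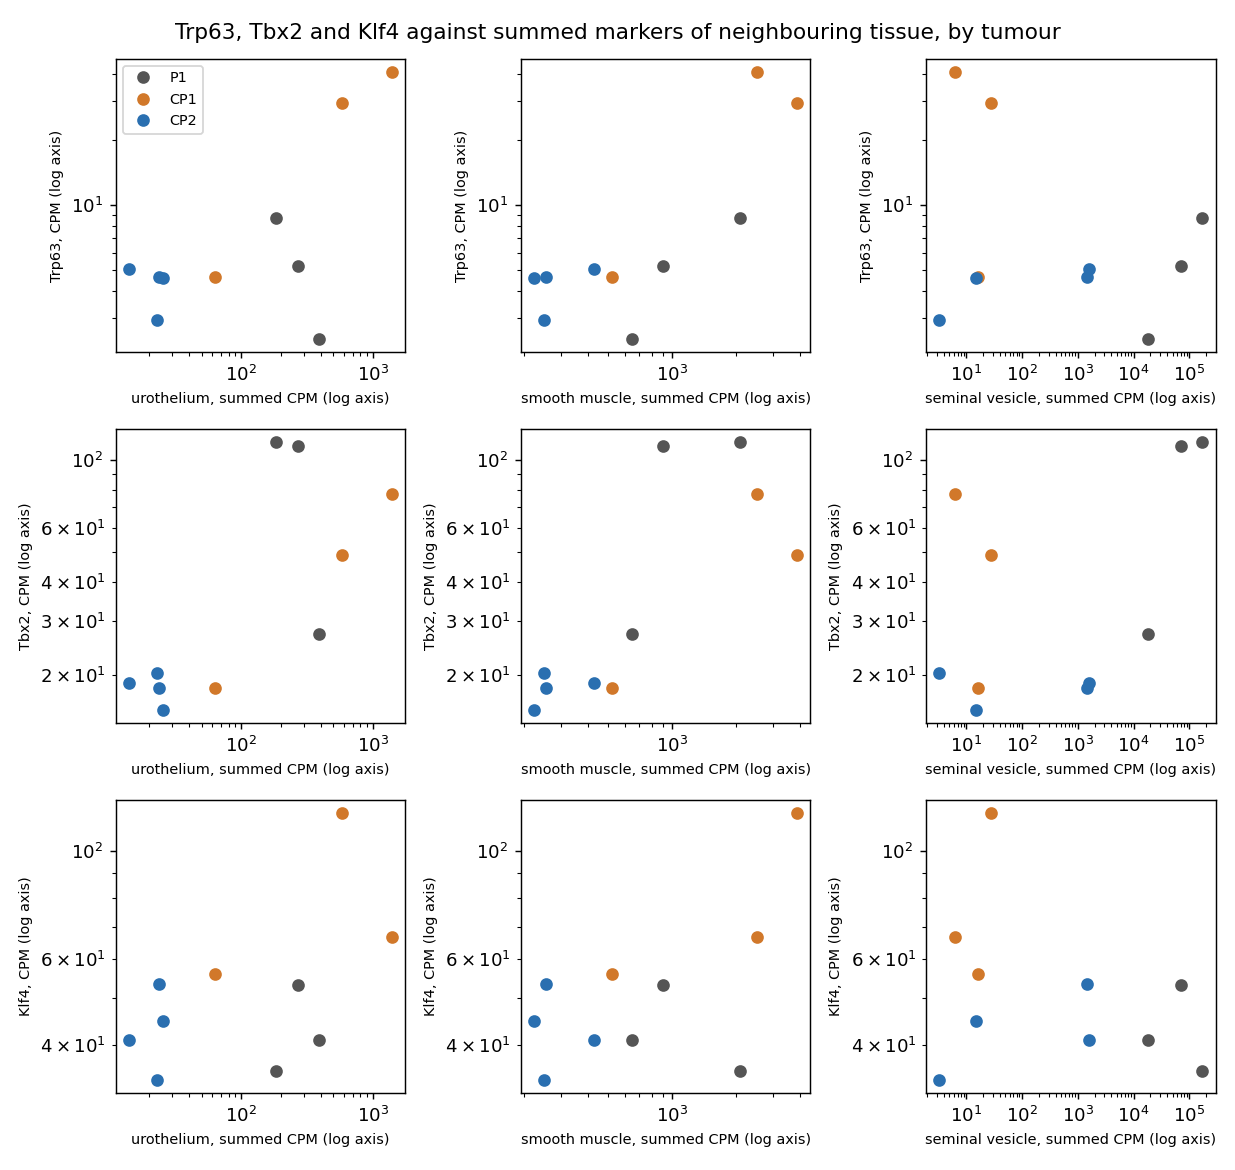
Each tumour's CPM of Trp63, Tbx2 and Klf4 (rows, vertical log axes) against its summed CPM of urothelium, smooth muscle and seminal vesicle markers (columns, horizontal log axes). CP1 replicates 2 and 3 lie apart at high Trp63 and high urothelium sums (580 and 1396 CPM).

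Genes known to depend on or accompany p63 did not move as 1 group. Of 25 listed, 24 were tested, and 7 were higher and 13 lower in CP1 than in P1, although Trp63 itself was called higher there. In CP2 against P1, 4 were higher and 17 lower, and in CP2 against CP1, 3 were higher and 11 lower. Median log2 fold changes were -2.11, -2.08 and -0.85, against -0.01, 0.00 and -0.01 over all genes. Without CP1 replicates 2 and 3, 3 rather than 7 were higher in CP1 than in P1, and CP2 against CP1 turned to 7 higher and 6 lower.

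Basal keratins split in CP1. Krt5 was at 20.0, 353 and 243 CPM in CP1 replicates 1, 2 and 3, against 9.88 to 28.7 CPM in P1 and 8.48 to 27.4 CPM in CP2. Krt15 followed the same order, at 32.2, 538 and 316 CPM in CP1, 9.30 to 26.6 CPM in P1 and 1.58 to 6.13 CPM in CP2. Both thus had the pattern of Trp63, low in CP1 replicate 1 and high in the other 2. Krt15 rose in CP1 by 4.10 ± 0.88 (adjusted p = 0.00367), and by 0.90 with no call without those 2 (adjusted p = 0.340). Without P1 replicates 1 and 2 the difference was 3.44 and not called (adjusted p = 0.0963). Krt14, the usual partner of keratin 5, did the reverse and averaged 246 CPM in P1, 15.1 CPM in CP1 and 103 CPM in CP2. Krt14 was lower in CP1 than in P1 by -4.02 ± 0.41 (adjusted p = 4.2e-05), and higher in CP2 than in CP1 by 2.77 ± 0.38 (adjusted p = 3.68e-04).

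Adhesion genes of the list went both ways. Lama3 and Lamb3, which encode laminin chains of epithelial basement membranes, fell in CP1 by -3.87 and -3.89 and in CP2 by -3.79 and -3.81 (all adjusted p at most 6.6e-05). Fermt1, which encodes an integrin activator of epithelia, fell from 191 CPM in P1 to 3.81 CPM in CP1 and 1.08 CPM in CP2. Its log2 fold changes were -5.65 ± 0.52 (adjusted p = 2.15e-05) and -7.48 ± 0.52 (adjusted p = 2.6e-06). Dsg3, a desmosomal cadherin of stratified epithelia, fell from 5.35 CPM to 0.242 and 0.0845 CPM. The hemidesmosome collagen Col17a1 rose in CP1 (2.36 ± 0.78, adjusted p = 0.0319) and not without CP1 replicates 2 and 3 (-0.22, adjusted p = 0.873). That call also ended without P1 replicate 2 or 3, without CP1 replicate 2 or 3, without P1 replicates 1 and 2, and with only the CP1 and P1 tumours in the fit (1.81 to 2.63, adjusted p = 0.0523 to 0.160). Dst, a linker of hemidesmosomes to the cytoskeleton, rose from 114 CPM in P1 to 317 CPM in CP1 (1.48 ± 0.20, adjusted p = 2.23e-04). It was 175 CPM in CP2 (0.62 ± 0.19, adjusted p = 0.0159), a call that ended without P1 replicate 2 (0.56, adjusted p = 0.0600) or P1 replicate 3 (0.43, adjusted p = 0.0541). Nectin1, a cell junction protein, rose from 33.9 CPM in P1 to 106 CPM in CP1 (1.65 ± 0.16, adjusted p = 2.48e-05). It was 24.8 CPM in CP2 (-0.45 ± 0.14, adjusted p = 0.0211), and this call ended without P1 replicate 1 or 3 or CP2 replicate 1 or 3 (adjusted p = 0.0564 to 0.0675).

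Grhl3 and Fat2 rose in both CP lines against P1. Grhl3, a surface epithelium factor that is also in the urothelium list, was at most 0.187 CPM in P1, while CP1 had 1.91, 27.6 and 19.8 CPM and CP2 11.3 to 13.9 CPM. Its log2 fold changes were 6.71 ± 0.93 (adjusted p = 2.66e-04) and 6.28 ± 0.91 (adjusted p = 2.47e-04). Fat2, a giant cadherin, rose in CP1 by 2.86 ± 0.64 (adjusted p = 0.00449), while the CP2 rise was 3.34 ± 0.63 (adjusted p = 0.00131). Its rise in CP1 was 0.97 and not called without CP1 replicates 2 and 3 (adjusted p = 0.264).

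**Figure D4:**
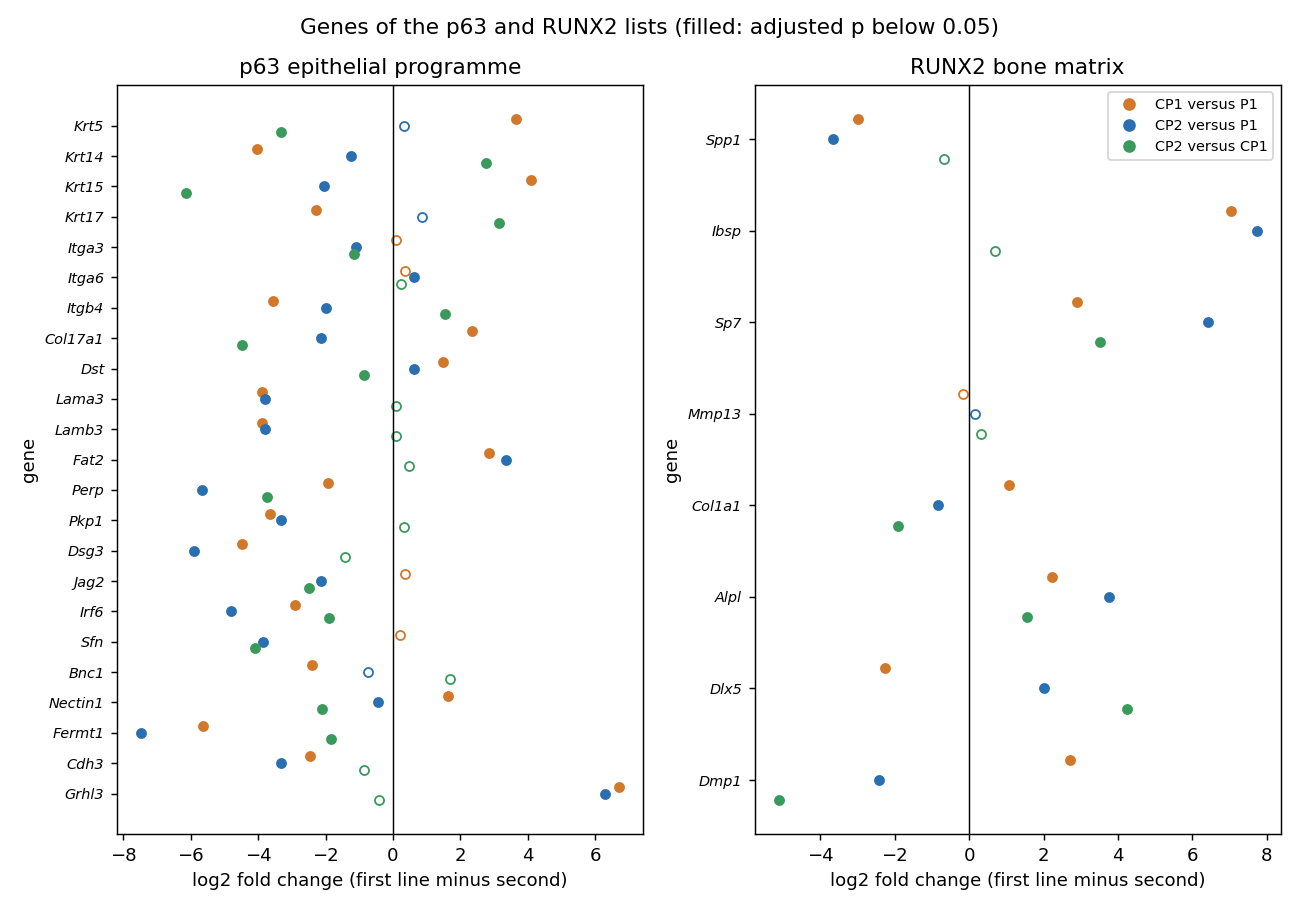
Log2 fold change (horizontal axes) of the 24 tested p63 genes, 1 of them not drawn, and the 8 tested bone matrix genes in each comparison, where filled points were called. Lama3 and Lamb3 lie left of 0 against P1, while Krt5 and Krt15 lie right of 0 in CP1 versus P1.

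Klf4 stood at 35.4, 53.2 and 41.1 CPM in P1, with 56.1, 66.8 and 120 CPM for CP1 and 53.4, 44.8, 34.0 and 41.0 CPM for CP2. Every CP1 tumour lay above every P1 and CP2 tumour, by little in replicate 1. Klf4 (chromosome 4: 55527143 to 55532466, minus strand) rose in CP1 by 0.90 ± 0.28 (adjusted p = 0.0239) and was -0.90 ± 0.26 in CP2 against CP1 (adjusted p = 0.0183). CP2 and P1 differed by 0.00 (95% interval -0.58 to 0.58). The rise in CP1 was not called without P1 replicate 1 (0.76, adjusted p = 0.0837), P1 replicate 3 (0.86, 0.0698), CP1 replicate 3 (0.51, 0.0882), P1 replicates 1 and 2 (0.95, 0.121) or CP1 replicates 2 and 3 (0.38, 0.337), nor with only the CP1 and P1 tumours in the fit (0.89, 0.0606). The CP2 difference from CP1 was not called without CP1 replicate 3 (-0.51, adjusted p = 0.078) or without CP1 replicates 2 and 3 (-0.38, adjusted p = 0.338). CP1 replicate 3, highest in Klf4, also had the most smooth muscle transcripts. In P1, however, replicate 1 had the most of them (2097 CPM) and the lowest Klf4 (35.4 CPM). The part of smooth muscle was not tested.

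The KLF list held 17 genes, Klf4 included, of which 13 were tested. Of these, 2 (Klf4 and Klf13) were higher and 5 lower in CP1, 1 higher and 5 lower in CP2 (both against P1), and 4 higher and 3 lower, Klf4 among them, in CP2 against CP1. Klf5, a factor of proliferating epithelia, fell from 184 CPM in P1 to 35.2 CPM in CP1 (-2.39 ± 0.18, adjusted p = 6e-06) and 57.6 CPM in CP2 (-1.68 ± 0.16, adjusted p = 1.7e-05). Klf2, known from endothelium and quiescent lymphocytes, fell from 49.7 CPM to 28.5 and 18.1 CPM. Klf13 averaged 138 CPM in P1, 181 CPM in CP1 and 313 CPM in CP2, and rose in CP2 by 1.18 ± 0.14 (adjusted p = 7.5e-05). Its smaller rise in CP1 (0.40 ± 0.15, adjusted p = 0.0495) was not called with RLE factors (0.39, adjusted p = 0.0577), without the filter on low counts (0.39, adjusted p = 0.0776), with only the CP1 and P1 tumours in the fit (0.39, adjusted p = 0.0991), or without any 1 P1 tumour or CP1 replicate 2 or 3 (0.32 to 0.40, adjusted p = 0.0917 to 0.154). It was 0.05 without CP1 replicates 2 and 3 (adjusted p = 0.843) and 0.35 without P1 replicates 1 and 2 (adjusted p = 0.260).

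Gata3, a luminal and urothelial factor, had the narrowest range of the 9 over the 10 tumours. It stood at 115, 109 and 121 CPM in P1, with 94.4, 118 and 126 CPM for CP1 and 106, 117, 107 and 99.6 CPM for CP2. The lines overlapped throughout. Gata3 (chromosome 2: 9857078 to 9890034, minus strand) differed by -0.03 in CP1 (95% interval -0.28 to 0.23) and -0.10 in CP2 (-0.34 to 0.14), so the data leave room for changes of up to about those bounds. CP2 against CP1 gave -0.07 (-0.31 to 0.16).

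Gata2, known from blood stem cells, endothelium and androgen-responsive prostate epithelium, stood at 334, 106 and 151 CPM in P1, with 121, 109 and 108 CPM for CP1 and 188, 208, 179 and 192 CPM for CP2. P1 replicate 1 was the highest tumour of all, and the CP1 and CP2 tumours did not overlap. Gata2 (chromosome 6: 88193891 to 88207032, plus strand) passed in no comparison: -0.81 ± 0.33 in CP1 (adjusted p = 0.0722), -0.04 ± 0.31 in CP2 (adjusted p = 0.923) and 0.77 ± 0.31 in CP2 against CP1 (adjusted p = 0.0724). P1 replicate 1 set the CP2 value. Without it Gata2 was 0.56 higher in CP2 than in P1 and called (adjusted p = 0.0095), and without P1 replicates 1 and 2 it was 0.31 (adjusted p = 0.0466). The CP1 difference was called without P1 replicate 2 (-1.13, adjusted p = 0.00777), without P1 replicates 1 and 2 (-0.46, adjusted p = 0.0128) and in DESeq2 (-0.82, adjusted p = 0.0347). With only CP1 and CP2 in the fit their difference was called (0.76, adjusted p = 1.84e-04).

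Gata6, an endoderm factor, stood at 21.6, 28.5 and 22.9 CPM in P1, with 17.4, 30.1 and 30.8 CPM for CP1 and 45.1, 30.6, 27.9 and 29.4 CPM for CP2. CP2 replicate 1 was the highest of all tumours and CP1 replicate 1 the lowest. Gata6 (chromosome 18: 11052064 to 11085635, plus strand) passed in no comparison, with 0.10 in CP1 (95% interval -0.45 to 0.65), 0.45 in CP2 (-0.07 to 0.97) and 0.35 between the CP lines (-0.17 to 0.87).

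Of the 9 GATA genes and cofactors listed, 8 were tested, Gata2, Gata3 and Gata6 among them, and 2 were higher and 2 lower in CP1, 1 higher and 3 lower in CP2 (both against P1), and 2 higher and 2 lower in CP2 against CP1. Gata5, a gut and heart factor, averaged 107 CPM in P1, 1.95 CPM in CP1 and 0.361 CPM in CP2 (-5.79 ± 0.52, adjusted p = 1.8e-05, and -8.20 ± 0.55, adjusted p = 2.0e-06). The 8 intestinal epithelium markers were also high in P1, at 1313 to 2347 CPM, against 6.09 to 19.6 CPM in the CP tumours, with Cdx1 at 0 in all 7 CP tumours. Their part in the Gata5 result was not tested. Trps1, a GATA-type repressor, averaged 10.1, 30.4 and 68.5 CPM in P1, CP1 and CP2, and rose by 1.58 ± 0.25 (adjusted p = 5.9e-04) and 2.75 ± 0.25 (adjusted p = 1.3e-05). Zfpm1, a GATA cofactor, fell from 185 CPM in P1 to 58.5 and 88.6 CPM. Another cofactor, Zfpm2, averaged 1.14, 1.45 and 2.04 CPM and passed in no comparison. Gata4 rose in CP1 from 7.73 to 15.8 CPM (1.03 ± 0.29, adjusted p = 0.0152) and fell in CP2 to 1.08 CPM (-2.84 ± 0.29, adjusted p = 2.9e-05). Its rise in CP1 was not called without P1 replicate 2 (0.97, adjusted p = 0.0529), CP1 replicate 3 (0.89, adjusted p = 0.0570) or CP1 replicates 2 and 3 (0.98, adjusted p = 0.107).

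Levels of different genes were compared per kilobase of merged exons. In P1 the order was Gata2 (36.5 ± 22.4 CPM per kilobase, SD, n = 3), Gata3 (28.9 ± 1.58), Tbx2 (23.2 ± 13.6), Tbx3 (20.0 ± 8.92), Klf4 (14.2 ± 2.98), Runx1 (9.77 ± 2.33), Runx2 (4.88 ± 0.197), Gata6 (3.74 ± 0.565) and Trp63 (0.650 ± 0.378). From Gata2 down to Runx1, the spreads of neighbours in this order overlapped. In CP2 Tbx3 led, at 63.4 ± 4.74 (n = 4), followed by Gata2 (35.5 ± 2.24), Gata3 (27.0 ± 1.76), Klf4 (14.2 ± 2.65), Runx2 (12.4 ± 0.776), Runx1 (11.8 ± 1.14), Gata6 (5.11 ± 1.22), Tbx2 (5.00 ± 0.555) and Trp63 (0.516 ± 0.111). There Klf4, Runx2 and Runx1 were not set apart by their spread, and neither were Gata6 and Tbx2. In CP1 Tbx3 also led (47.6 ± 2.73, n = 3), and Trp63 had the lowest mean (2.98 ± 2.21). It was not set apart from Gata6 (4.01 ± 1.16), below which it lay in replicates 1 and 3 and above which in replicate 2 (4.89 against 4.63).

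For each gene the most similar pattern among 11965 genes was sought over the 10 tumours by Pearson's r of log2 CPM, as a description. The tumours fall into 3 lines, which alone raise such an r, so r after subtracting each line's mean is given too. Runx2 was closest to Nr1d1 (0.995, within lines 0.924), Tbx3 to Abcb1b (0.993, 0.95) and Gata2 to Podxl (0.972, 0.970). Tbx2 was closest to Adam23 (0.967, 0.934), Runx1 to Fnip2 (0.959, 0.959) and Trp63 to Nqo1 (0.954, 0.907). By ranks, the Nqo1 pattern was less close to Trp63 (Spearman's rho 0.636). Tmem64, ranked 3 for Trp63 by Pearson's r (0.938, 0.981), had a rho of 0.927. Klf4 was closest to Mindy3 (0.947, 0.885), Gata6 to Ell (0.933, 0.954) and Gata3 to Mettl22 (0.877, 0.920).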

How the data were processed

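RNA of 10 tumours was sequenced, and each deposited file gives raw read counts by Ensembl gene for 1 tumour. Tools named in the submitters' processing notes include TopHat2 2.1.0, Bowtie2 2.2.6.0, HTSeq 0.6.0 and DESeq2 1.14.1, with the build GRCm38.p3. Whether strand was used in counting is unknown here. Of 47069 gene IDs, 46574 matched GENCODE M21, which gave symbols, coordinates and exon lengths. No 2 files were identical.

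Counts were tested with edgeR 4.0.16 (limma 3.58.1, R 4.3.3). filterByExpr (minimum count 10, minimum total 15) left 17644 genes, libraries were TMM-scaled, and all 10 tumours entered 1 quasi-likelihood fit (1 mean for each line) with 7 residual degrees of freedom. Adjusted p-values are Benjamini-Hochberg over all genes. SE is the log2 fold change over the square root of F. CPM use TMM-scaled libraries, and log2 CPM a prior count of 2. Alternatives were RLE factors, DESeq2 1.42.0, no filter, only the lines compared, each tumour left out, 2 pairs of tumours left out, and a replicate block. The script was tested on simulated data. Its first criterion, a required power, was missed for small differences, and it was then judged on bias, power for large differences and false calls.

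The 9 genes and all lists were chosen with earlier results of these data known. By the rule, all 9 genes were named, family genes of at least 5 CPM in a line, up to 2 called genes per direction, pathway list and comparison, and the 3 most similar genes per member. The text names fewer. Krt5, Lama3, Lamb3, Dst, Nectin1, Upk1a, Upk1b, Upk2, Upk3a, Upk3b, Snx31, Krt20, Prf1, Zfpm2, Bglap, Dmp1 and Tbx3os1 were named after their values were seen. Part of the genotypes and some list genes are not reported here.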

Additional observations from a re-analysis of the deposited data

Results flagged for a closer look

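In CP2, with 4 tumours, 2 of the 22 sets of values examined held a tumour whose distance from the rest passed Dixon's 95% limit, where chance gives about 1 in 20 sets. Gata6 was 45.05 CPM in CP2 replicate 1, the library whose title names CP1, against 27.9 to 30.6 CPM in the other 3. The smooth muscle markers summed to 427.2 CPM in CP2 replicate 4, against 223 to 255 CPM in the others.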

How the results depend on the processing

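Counts of called genes among the 9 moved as follows. DESeq2 gave 1 lower in CP1 against P1 and 2 higher in CP2 against CP1. With only the lines compared in the fit, 2 were higher in CP1 against P1 and 3 in CP2 against CP1. Without P1 replicates 1 and 2, 1 was lower in CP1 and 0 in CP2, both against P1. Without CP1 replicates 2 and 3, 2 were higher in CP1 against P1 and 0 lower in CP2 against CP1. Leaving out 1 tumour at a time gave 2 to 4 higher and 0 to 1 lower in CP1 against P1, 2 to 4 higher in CP2 against P1 and 1 to 3 lower in CP2 against CP1. The causes were not tested, except that fits with fewer tumours have fewer degrees of freedom.

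Titles of P1 and CP2 share the numbers 19 and 21, whose tumours' deviations from their line means correlated at -0.17 and -0.06. With so few tumours in a line, these values cannot show whether the tumours shared more than a number. Used as a replicate block, the shared numbers gave 2 higher in CP1 against P1 and 1 lower in CP2 against CP1. Trp63 and Klf4 lost their calls in the first comparison, and Tbx2 and Klf4 in the second. The rises of Col17a1 (2.07, adjusted p = 0.211) and Klf13 (0.32, adjusted p = 0.231) in CP1 against P1 also lost their calls. So did the Col1a1 differences of CP1 and CP2 from P1 (adjusted p = 0.0667 and 0.0694). Under the replicate block Gata6 turned to -0.14 in CP1 against P1, and in CP2 against P1 Gata2 turned to 0.18 and Klf4 to -0.0653.

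Of 351 values of the 9 under alternatives, 291 kept direction and call. Without turning, 26 lost and 10 gained a call. Another 24 turned, some of them with a change of call as well. Klf4 in CP2 against P1 turned to -0.0183 with RLE, -0.0181 with DESeq2, -0.0493 without the filter and -0.0116 with only these lines. Leaving out 1 tumour at a time gave -0.14 to 0.16 for it, -0.70 to 0.16 for Trp63 and -0.36 to 0.56 for Gata2 in CP2 against P1, -0.11 to 0.0779 for Gata3 and -0.029 to 0.32 for Gata6 in CP1 against P1, and -0.19 to 0.012 for Gata3 in CP2 against CP1. Without P1 replicates 1 and 2, Tbx2 turned to 0.80 in CP1, and Trp63 to 0.82 and Gata2 to 0.31 in CP2. Without CP1 replicates 2 and 3, Trp63 turned to -0.22 and Gata6 to -0.48 in CP1 against P1, and Gata3 to 0.18 in CP2 against CP1. Of the list counts under alternatives, 1356 stayed within 1.5 times and 204 did not. CP2 libraries are the shallowest, which limits genes at low counts there.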
